A study of Homo sapiens with 3 samples.

Results

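Genes of mitosis, the kinetochore and cytokinesis were followed in LS174T-tetON-NICD, derived from LS174T human colon carcinoma cells, where doxycycline induces the Notch intracellular domain (NICD). The genes were a given list of 56 symbols, matched by current symbol or older alias to the array's probe annotation, and 55 of the 56 had a probe (64 probes in all). KIF4A had no probe under its symbol or an alias and is not described further. All 55 genes were above the background of the blank spots in at least 1 channel of every array, so none was lost to the filter on dim probes. CDK1 was carried on the array under its older symbol CDC2 and NDC80 under KNTC2. The whole array gave 14529 measured genes.

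Cells were left untreated, or were given tumour necrosis factor alpha (TNF, 50 ng/ml), doxycycline (100 ng/ml) or both for 24 h. Each treated culture was labelled with Cy3 and hybridised against untreated cells of the same line labelled with Cy5, on 1 two-colour array per condition, with no dye swap. All groups carry the inducible transgene, and no doxycycline-treated cells without it were among the samples, so NICD and doxycycline itself cannot be told apart. With 1 culture and 1 array per condition no value below has a replicate error or a p-value, and every count describes these arrays alone.

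Entry into mitosis is driven by CDK1 bound to cyclins A and B, and the polo-like and Aurora kinases carry the programme on to spindle assembly and chromosome attachment. Kinetochores are protein complexes built on the centromeric histone variant CENPA that couple chromosomes to spindle microtubules, kinesins move and organise those microtubules, and the anaphase-promoting complex with its activator CDC20 starts chromosome separation, after which the central spindle and the contractile ring divide the cell. Transcription of most of these genes peaks in G2 and M phase under the factors FOXM1 and MYBL2 (B-MYB) and is repressed in resting cells through a promoter element named the cell cycle genes homology region (CHR), often near CCAAT boxes bound by NF-Y.

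Promoters were compared because this element is a feature that the choice of genes did not use. RefSeq promoters of GRCh38.p14, which run from 250 bases before to 50 after the annotated start, were in the table for 47 of the 56 genes, and the first listed start of each gene was taken. The 3 genes in that table with the lowest ratios under both treatments, and the gene nearest to no difference, are shown 5′ to 3′ on the strand of the gene, with capitals marking every CCAAT (or ATTGG) and every CHR letter run. HJURP lies at chr2:233854486-233854785 on the minus strand, CDCA5 at chr11:65083991-65084290 on the minus strand, CDCA8 at chr1:37692266-37692565 on the plus strand and ESPL1 at chr12:53268049-53268348 on the plus strand.
HJURP: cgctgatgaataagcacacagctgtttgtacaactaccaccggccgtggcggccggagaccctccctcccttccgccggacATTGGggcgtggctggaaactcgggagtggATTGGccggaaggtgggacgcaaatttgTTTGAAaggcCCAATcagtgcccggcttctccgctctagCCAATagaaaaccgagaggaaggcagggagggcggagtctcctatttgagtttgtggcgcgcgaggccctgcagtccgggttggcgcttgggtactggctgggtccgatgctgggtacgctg
CDCA5: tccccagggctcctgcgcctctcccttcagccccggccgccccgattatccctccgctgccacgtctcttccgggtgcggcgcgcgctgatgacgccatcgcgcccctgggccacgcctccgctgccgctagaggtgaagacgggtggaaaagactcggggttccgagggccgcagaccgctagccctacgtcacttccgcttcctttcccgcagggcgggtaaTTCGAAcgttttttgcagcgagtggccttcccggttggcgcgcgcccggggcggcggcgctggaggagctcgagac
CDCA8: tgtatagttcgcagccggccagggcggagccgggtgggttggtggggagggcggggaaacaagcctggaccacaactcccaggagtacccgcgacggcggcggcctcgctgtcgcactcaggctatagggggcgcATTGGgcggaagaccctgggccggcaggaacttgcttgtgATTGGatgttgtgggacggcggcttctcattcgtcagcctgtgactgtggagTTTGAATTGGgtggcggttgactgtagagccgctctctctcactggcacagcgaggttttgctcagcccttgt
ESPL1: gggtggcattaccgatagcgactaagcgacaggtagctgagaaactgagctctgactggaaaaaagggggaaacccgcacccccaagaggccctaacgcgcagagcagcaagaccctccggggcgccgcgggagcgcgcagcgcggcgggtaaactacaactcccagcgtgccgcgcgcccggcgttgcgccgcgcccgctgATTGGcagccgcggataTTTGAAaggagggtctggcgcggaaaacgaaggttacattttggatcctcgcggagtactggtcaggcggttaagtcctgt
The promoter of HJURP, whose product loads CENPA onto centromeres, held 4 CCAAT boxes and a TTTGAA at offset -111 from the start. CDCA5, the gene of sororin, which protects sister chromatid cohesion, held no CCAAT but a TTCGAA at offset -26. In CDCA8, the gene of borealin, 3 CCAAT boxes were found, and the one nearest the start shares a base with a TTTGAA at offset -23. ESPL1, the gene of separase, held 1 CCAAT at offset -48 and a TTTGAA at offset -31, so both kinds of letters were also present in the gene nearest to no difference.

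Both strands were searched. CCAAT occurred in 33 of the 47 promoters (70.2%), against 35.7% of the 27305 genes in the table and 36.9% of the promoters of measured genes. TTTGAA or TTCGAA occurred in 35 (74.5%), against 16.6% and 12.1%, and in 31 of these 35 a match lay within 60 bases of the start. CCAAT and CHR letters overlapped in 2 genes. E2F letters (TTCCCGC or TTGGCGC) were in 12 (25.5%), against 9.3% and 13.6%. Among the 17 with a promoter that stood at least 2-fold lower under both treatments (below), 14 held a CCAAT and 14 a CHR; among the other 29 measured genes 18 and 20 did. Genes of DNA replication, set beside them, held CHR letters in 2 of 35 promoters and E2F letters in 24. A match of letters is a description and not a bound site.

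Signals are given as intensity over the mean of the blank spots. Values of 3 arrays are listed in the order TNF, doxycycline, both. The median probe signal was 35.6, 30.7 and 30.6 in the control channel and 18.6, 55.7 and 61.7 in the treated channel. Cy3 thus read brighter than Cy5 on the doxycycline and combined arrays, and loess normalisation within each array removes this from the log2 ratios. The mitosis genes were bright, with a median control signal of 463 (from 11.2 to 3094), against 82.6 for all genes. The TNF array stood apart from the others, as genes with 2 probes showed. Over 1691 such genes, the probes differed by at least 2-fold in 25.7% with TNF, 1.12% with doxycycline and 2.72% with both. Treatment responses were present on each array: the NF-kB feedback gene TNFAIP3 had log2 ratios of 3.48, 0.17 and 3.01, and the Notch target HES5 had -0.20, 3.13 and 3.72. Of 11 colon epithelium markers 10 were measured, and a probe of EPCAM had control signals of 8734, 8566 and 8386. Of 11 markers of leukocytes, endothelium and fibroblasts 5 were measured, namely CD14, VWF, CDH5, DCN and PDGFRB. DCN had the highest log2 control levels of these 5, at 8.18, 8.01 and 7.89, against 13.6, 13.5 and 13.5 for EPCAM. The colon marker KRT20 stood lower than DCN, at 6.31, 6.28 and 6.29, and the other measured colon markers stood above DCN on every array. The leukocyte marker PTPRC was not above background in the control channel of any array.

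The 3 control channels, all of untreated cells, gave a technical yardstick. Control levels were derived, after loess and scaling, from the ratio and the mean log2 signal of both channels. The treated channel thus also enters them. After scaling, the control levels of the 55 genes differed between arrays with an SD of 0.09, 0.11 and 0.10 on the log2 scale. The largest differences were 0.54 for CDCA5 and 0.50 for CDCA8, so that 0 of the 55 reached 1.5-fold between any pair of control channels. Of all genes, 0.213% (TNF and doxycycline arrays), 0.805% (TNF and combined) and 0.0895% (doxycycline and combined) did, and 0.0275%, 0.0344% and 0.0138% reached 2-fold. Whether the controls share 1 RNA preparation is not given in the labels, and spread between treated cultures is not covered by this yardstick.

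With both treatments together, nearly all mitosis genes stood below the untreated level. Of the 55 genes, 23 were at least 2-fold lower than in untreated cells and 0 at least 2-fold higher, while 2.13% of all genes were as low and 3.17% as high. The median log2 ratio was -0.87 (interquartile range -1.31 to -0.54), against 0.00 for all genes, and 54 of 55 lay below 0. The count of 23 depended on the processing: it was 10 with median centring without loess, 17 with the scanner's local background (48 of 55 below 0) and 33 in the authors' deposited table. Of all genes, 0.929%, 1.32% and 5.46% were as low in these settings. At 1.5-fold, 36 were lower and 0 higher, against 6.67% and 8.57% of all genes. In bulk RNA, fewer cells in mitosis and less RNA per mitotic cell cannot be told apart.

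**Figure D1:**
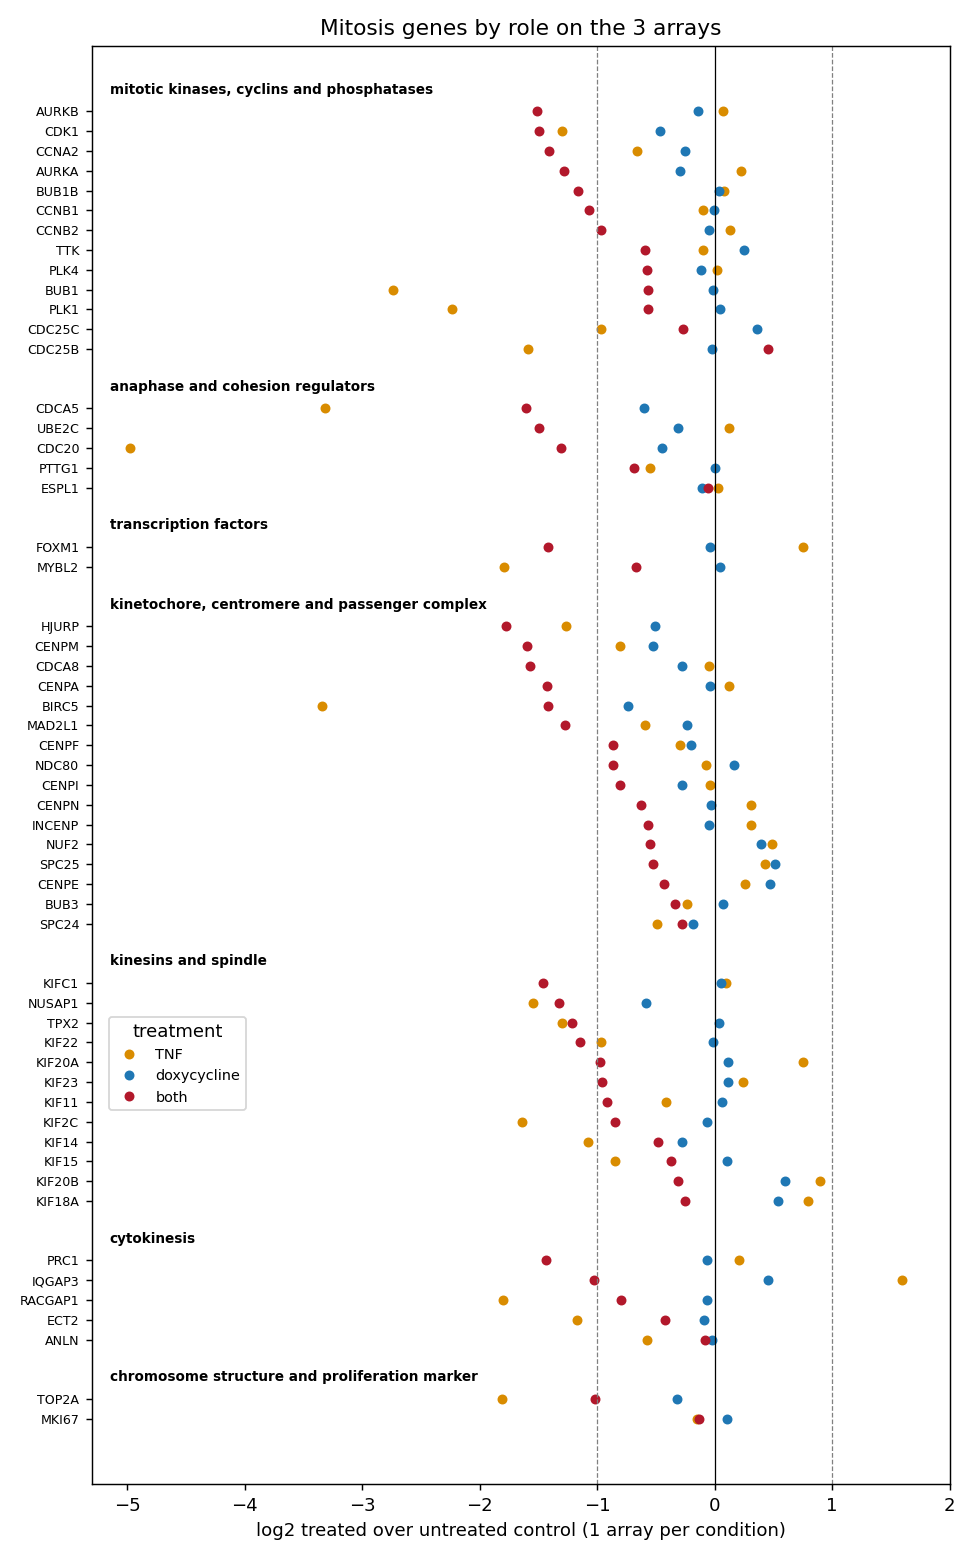
Log2 ratio of treated over untreated control (x axis) for the 55 measured genes (rows, grouped by role), with 1 point per array. Points of both treatments lie left of 0 except for CDC25B, points of doxycycline lie within 1 log2 unit of 0, and points of TNF spread from -4.97 to 1.59. The TNF points of ANLN, CDCA5, MKI67 and PLK1 have a treated spot not above background. For KIF2C and KIF15 this holds for 1 of their 2 probes.

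Among kinases, cyclins and phosphatases 6 of 13 were at least 2-fold lower under both treatments (median -0.97). AURKB, the kinase of the chromosomal passenger complex, had control signals of 1646, 1194 and 1338 and treated signals of 2738, 2009 and 786. Its treated signal was above the control on the first 2 arrays and below it on the combined array, with log2 ratios of 0.07, -0.14 and -1.51 (2.85-fold lower). CDK1, the central mitotic kinase, read 2062, 1724 and 1906 in the control cells and 1250, 2312 and 1154 in the treated cells. Its ratios of -1.30, -0.46 and -1.49 put both TNF-treated cultures low, and doxycycline nearer to the control. For CCNB1, the gene of cyclin B1, both probes gave similar values on the combined array (-1.11 and -1.03) and on the doxycycline array (0.09 and -0.10), but 0.30 and -0.51 on the TNF array. CCNA2 (-1.41), AURKA (-1.28) and the checkpoint kinase BUB1B (-1.17) completed the lower group, and CCNB2 stood just inside 2-fold at -0.97. BUB1B turned to 0.33 when the scanner's local background was used.

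PLK1, the polo-like kinase of mitotic entry and spindle poles, differed less under both treatments, at -0.57, and its control spot was dimmer than those of the genes above (248, 194 and 194). Its treated signals were 1.46, 358 and 208. On the TNF array the ratio of -2.23 (4.70-fold lower) thus rests on a treated spot that was not above background. The checkpoint kinases TTK and BUB1 stood at -0.59 and -0.57 and the centriole kinase PLK4 at -0.58. The CDC25 phosphatases, which activate CDK1, were the highest of the group. CDC25C read 116, 104 and 90.4 in the control cells and 21.7, 253 and 121 in the treated cells and stood at -0.27 with both. CDC25B read 195, 165 and 170 in the control cells and 17.8, 285 and 444 in the treated cells, and its ratio of 0.45 under both treatments was the only one of the 55 above 0.

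Of the 5 regulators of anaphase and cohesion 3 were at least 2-fold lower under both treatments. UBE2C, the ubiquitin-conjugating enzyme of the anaphase-promoting complex, read 1231, 1055 and 956 in the control cells and 2071, 1569 and 555 in the treated cells, and its ratios were 0.12, -0.31 and -1.50. CDCA5 read 577, 490 and 385 in the control cells and 4.01, 566 and 176 in the treated cells. It stood at -0.60 with doxycycline and -1.61 with both, a 3.05-fold lower level. For CDC20 the ratios were -0.45 and -1.31. PTTG1, the gene of securin, was among the brightest (3027, 2658 and 2592 in untreated and 3327, 4961 and 2837 in treated cells) and stood at -0.68 with both. ESPL1, with control signals of 53.1, 46.8 and 45.0, stood at -0.06, close to the control on every array.

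FOXM1, the forkhead factor that drives G2/M transcription, had control signals of 351, 276 and 276 and treated signals of 818, 481 and 138. The treated value was lowest under both treatments, and the ratios were 0.75, -0.04 and -1.42 (2.68-fold lower with both). MYBL2 averaged -0.67 there, but its brighter probe gave -1.39 and its dimmer probe 0.06. This was the widest gap between probes of 1 gene on the combined array.

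Kinetochore, centromere and passenger complex genes were below 0 in all 16 cases under both treatments, and 6 were at least 2-fold lower (median -0.83). HJURP was the lowest of all 55 genes. Its control signals were 815, 671 and 725, its treated signals 414, 848 and 326, and its ratios -1.27, -0.51 and -1.78 (3.43-fold lower with both). CENPA itself read 1229, 1097 and 1104 in the control cells and 2065, 1985 and 683 in the treated cells, so that only the combined array was low (0.12, -0.04 and -1.43). CENPM, a subunit of the inner kinetochore, read 1303, 1228 and 1126 against 1086, 1564 and 612 and stood at -1.60. Lower by at least 2-fold as well was MAD2L1, a spindle checkpoint protein, at -1.27. CDCA8 stood at -1.57, a value that turned to 0.03 with the local background, and BIRC5, the gene of survivin, at -1.42.

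In the NDC80 complex, which grips the microtubule, NDC80 lay near the median of the group under both treatments and the other subunits were milder. NDC80 read 479, 382 and 380 in the control cells and 591, 795 and 338 in the treated cells, with ratios of -0.08, 0.17 and -0.86. NUF2 (-0.55), SPC25 (-0.53) and SPC24 (-0.28) stood closer to the control. CENPF (-0.87), CENPI (-0.81), CENPN (-0.63), INCENP (-0.57) and the kinetochore motor CENPE (-0.43) filled the range between. BUB3, a checkpoint protein, was bright (1903, 1687 and 1788 in the control) and stood at -0.34 under both treatments.

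Among kinesins and spindle proteins 4 of 12 were at least 2-fold lower and all 12 below 0 under both treatments (median -0.94). KIFC1, a minus-end-directed motor that bundles spindle microtubules, read 1084, 908 and 925 in the control cells and 1760, 1756 and 552 in the treated cells. The ratios of 0.09, 0.05 and -1.46 set the combined array apart from both others. TPX2, which activates Aurora A and nucleates spindle microtubules, read 1759, 1503 and 1413 against 1046, 2876 and 1040, and here the TNF array was low as well (-1.30, 0.03 and -1.21). NUSAP1, a protein that binds spindle microtubules, read 1141, 914 and 918 in the control cells and 507, 1106 and 608 in the treated cells and stood at -1.32 with both. KIF22, a chromosome arm motor, stood at -1.14. KIF20A and KIF23, motors of the central spindle, stood at -0.98 and -0.96, KIF11, which pushes spindle poles apart, at -0.92, and KIF2C, a microtubule depolymerase, at -0.85. KIF14 (-0.48), KIF15 (-0.38), KIF20B (-0.32) and KIF18A (-0.25) were nearest to the control, and their control signals lay between 34.8 and 155. KIF18A, which limits chromosome oscillation, had treated signals of 204, 285 and 139 against controls of 104, 99.8 and 101, and its ratios were 0.80, 0.54 and -0.25.

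PRC1 and IQGAP3 were the cytokinesis genes at least 2-fold lower under both treatments. PRC1, the bundler of the central spindle, read 1828, 1666 and 1682 in the control cells and 3383, 2976 and 1059 in the treated cells, with ratios of 0.21, -0.06 and -1.43. RACGAP1, a subunit of the centralspindlin complex, stood at -0.79 and ECT2, the exchange factor that activates RHOA at the division plane, at -0.42. ANLN stood at -0.08 with control signals of 28.8 to 32.1, near the dim end. TOP2A, the topoisomerase that untangles sister chromatids, averaged -1.01 with both over probes at -1.38 and -0.65. Its brighter probe read 772, 619 and 671 in the control cells and 185, 893 and 414 in the treated cells, low on both arrays with TNF-treated cells. MKI67, the gene of the Ki-67 antigen, stood at -0.13, but its control signals were only 12.9, 12.2 and 8.47, the dimmest of the 55, against 4.37, 29.6 and 9.22 in the treated channel, so that its ratio carries little information.

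**Figure D2:**
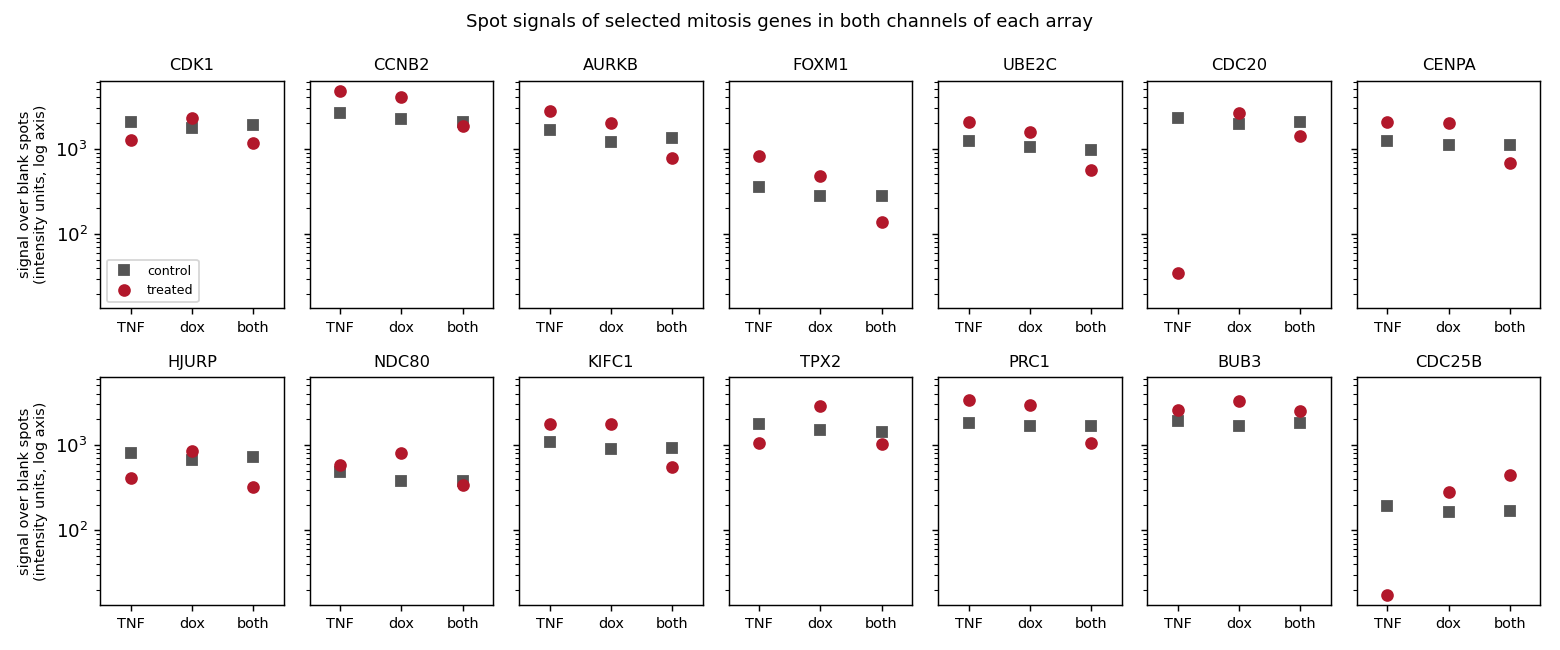
Signal over blank spots (y axis, intensity units, log axis) in the control (squares) and treated (circles) channel with TNF, doxycycline (dox) and both for 14 of the genes; for all but BUB3 and CDC25B the treated circle is below the control square on the combined array. CDC20 and CDC25B show the treated spot far below the control on the TNF array, at 34.7 and 17.8.

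How low a gene stood went with how bright it was. Split at a control signal of 500, a value chosen after the data were seen, 19 of the 24 brighter genes were at least 2-fold lower under both treatments (median -1.32) and 4 of the 31 dimmer ones (median -0.57). Of all genes, 6.68% of the brighter and 1.20% of the dimmer ones were as low. Across the 55 genes, Spearman's rho between log2 control signal and the combined ratio was -0.69 (1 array, genes not independent). The offset added to every signal draws the ratios of dim spots towards 0, and its part in this relation was not tested.

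Doxycycline alone left these genes near the untreated level. On this array 0 of 55 were at least 2-fold lower and 0 at least 2-fold higher, against 0.406% and 1.18% of all genes. At 1.5-fold 3 were lower, namely BIRC5 (-0.74), CDCA5 (-0.60) and NUSAP1 (-0.59), against 2.13% of all genes, and KIF20B (0.60) was higher, against 4.11%. The median was -0.04 against 0.01 for all genes, and the SD over the 55 genes was 0.29, against 0.50 with both. HJURP (-0.51), CENPM (-0.53), CDK1 (-0.46) and CDC20 (-0.45) stood lowest among the rest, and KIF18A (0.54), SPC25 (0.51) and CENPE (0.47) highest. The sign of this small shift depended on the centring: when arrays were centred on their median without loess, the median of the 55 turned to 0.37, while the median of all genes moved to 0.14 and 8 of 55 instead of 35 lay below 0.

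The step from doxycycline to both treatments asks what TNF did in cells that express NICD, and it does not involve the TNF array. In this comparison 22 of 55 genes were at least 2-fold lower and 0 at least 2-fold higher, against 0.909% and 1.18% of all genes. The median difference of log2 ratios was -0.91 against 0.00 for all genes, 53 of 55 lay below 0, and 42 were at least 1.5-fold lower and 0 higher, against 4.23% and 3.85%. The lowest were KIFC1 (-1.51), IQGAP3 (-1.48), CENPA (-1.39), FOXM1 (-1.38), AURKB and PRC1 (both -1.37). The medians of the role groups were -0.92 for kinases, cyclins and phosphatases, -0.86 for anaphase regulators, -0.93 for kinetochore genes, -0.95 for kinesins and spindle proteins, -0.73 for cytokinesis, -1.05 for the 2 transcription factors and -0.47 for TOP2A and MKI67. CDC25B (0.48) and ESPL1 (0.05) were the genes not below 0.

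Some kinetochore and kinesin genes with milder ratios under both treatments were lower in this comparison, and they stood above the control with doxycycline alone. SPC25 moved from 0.51 with doxycycline to -0.53 with both, a difference of -1.04, and its treated signal from 1232 to 495 while its control signal read 453 and 419. CENPE differed by -0.91, KIF20B by -0.91 and KIF18A by -0.79. HJURP differed by -1.26 and TPX2 by -1.25. With median centring 26 of 55 were at least 2-fold lower in this comparison, and 12 with the local background, against 1.18% and 1.34% of all genes.

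**Figure D3:**
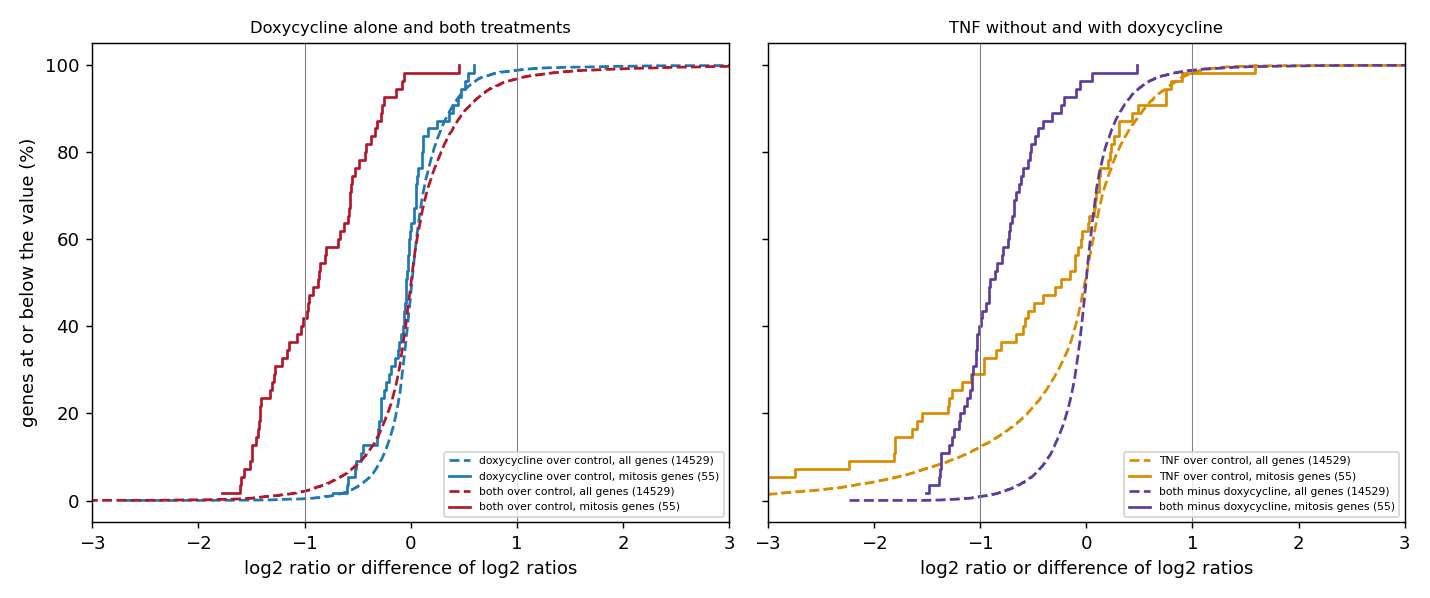
Percentage of genes (y axis) at or below a log2 ratio or difference of log2 ratios (x axis), for the 55 mitosis genes (solid) and all 14529 genes (dashed), with lines at 2-fold. The solid curves of both over control and of both minus doxycycline lie left of the dashed ones, with medians of -0.87 and -0.91; the solid curve of doxycycline follows its dashed one, and that of TNF has a long tail to the left.

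TNF alone gave scattered values. On the TNF array 16 of 55 genes were at least 2-fold lower and 1 at least 2-fold higher, against 12.3% and 1.8% of all genes, so that low ratios were common on this array at large. Split at a control signal of 500, 6 of the 24 brighter genes were as low, against 26.6% of all brighter genes, a similar share. Of the 31 dimmer ones 10 were, against 9.38% of all dimmer genes. The median was -0.24, and the SD over the 55 genes was 1.19. With median centring 15 were at least 2-fold lower and 3 at least 2-fold higher, against 12.4% and 5.24% of all genes. At 1.5-fold with loess, 22 were lower and 5 higher, against 19.2% and 8.96% of all genes. CDC20 was lowest: its control signals read 2299, 1939 and 2038, and its treated signals 34.7, 2634 and 1420. The treated spot was thus far below its control on the TNF array, where the ratio was -4.97, while the combined array, which also held TNF-treated cells, gave -1.31. BIRC5 (-3.34, against -1.42 on the combined array), BUB1 (-2.74 against -0.57) and RACGAP1 (-1.81 against -0.79) had the same order. With TNF, CDCA5 had a ratio of -3.32 (9.99-fold lower), which rests on a treated spot that was not above background. For KIF2C (-1.64), 1 of the 2 treated spots was not above background.

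Other genes stood at or above the control on the TNF array and low on the combined one. IQGAP3 read 218, 199 and 186 in the control cells and 961, 517 and 124 in the treated cells, with ratios of 1.59, 0.45 and -1.03. KIF20B (0.90), KIF18A (0.80), FOXM1 and KIF20A (both 0.75) were also above the control by more than 1.5-fold. AURKB, CENPA, KIFC1, UBE2C and PRC1, at -1.43 or below on the combined array, lay between 0.07 and 0.21 on the TNF array. In 35 of the 55 genes the combined array had the lowest of the 3 ratios, and in 19 the TNF array did.

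Of the 55 genes, 9 had 2 probes, and these show how far a value of the TNF array can be read. The gap between probes had a median of 0.81 with TNF, 0.19 with doxycycline and 0.32 with both. For ECT2 the probes read -2.61 and 0.27 with TNF, -0.31 and 0.13 with doxycycline and -0.26 and -0.58 with both. The treated signals of the first ECT2 probe were 21.2, 522 and 544 and those of the other 1025, 1076 and 631. TTK (-0.80 and 0.60) and CENPE (-0.33 and 0.86) likewise had 1 probe on each side of 0 with TNF. On the combined array the probes of 8 of these 9 genes had 1 sign, the exception being MYBL2.

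**Figure D4:**
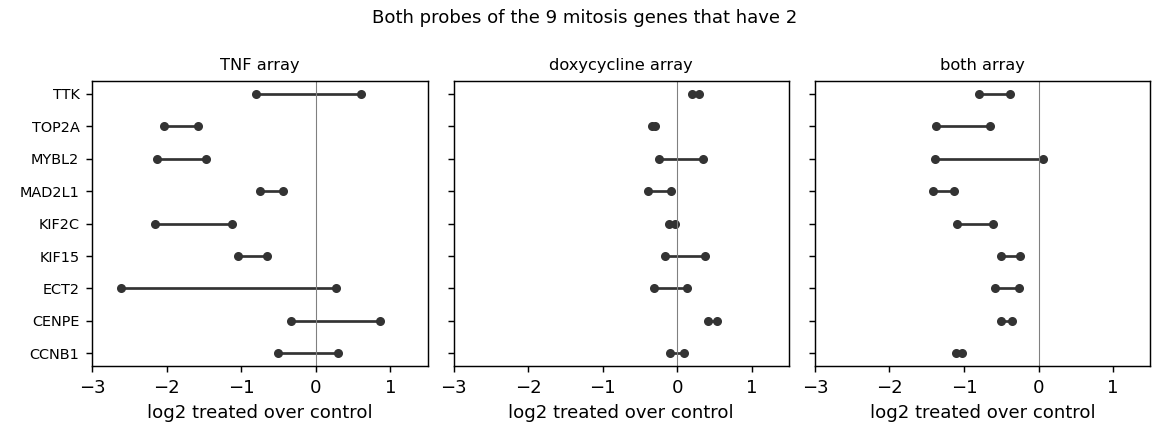
Log2 ratio of treated over control (x axis) of both probes (points joined by a line) of the 9 genes with 2 probes, with TNF, doxycycline and both. Gaps are widest on the TNF array, up to 2.89 for ECT2, and on the combined array widest for MYBL2 at 1.45.

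The remaining comparison, both treatments against TNF alone, rests on the TNF array. Of the 55 genes 16 were at least 2-fold lower and 8 at least 2-fold higher, against 3.29% and 14.0% of all genes, and the median difference was -0.57. At 1.5-fold 27 were lower and 13 higher, against 9.75% and 22.8%. IQGAP3 (-2.62), FOXM1 (-2.17), KIF20A (-1.73) and PRC1 (-1.64) were lowest. The highest were CDC20 (3.67), BUB1 (2.17), CDC25B (2.04) and BIRC5 (1.93), which were low with TNF alone.

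Further mitotic genes outside the 55 were taken from a wider list of 114, of which 111 were measured. Under both treatments 24 were at least 2-fold lower and 1 at least 2-fold higher (median -0.46), and in both minus doxycycline 18 and 0 (median -0.50). Here and for the lists below, the shares of all genes were 2.13% lower and 3.17% higher with both, and 0.909% and 1.18% in both minus doxycycline. Lowest under both were TUBB4B, a beta tubulin (-1.57), ZWINT, a kinetochore protein (-1.56), PKMYT1, a kinase that inhibits CDK1 (-1.49), and PSRC1 (-1.48). Condensin subunits were below 0 in 8 of 8 cases (median -0.67; NCAPD2 -1.05). Subunits and regulators of the anaphase-promoting complex and cohesin were not shifted as a group, with a median of 0.09 over 22 genes and 2 at least 2-fold lower (UBE2S -1.12 and the inhibitor FBXO5 -1.08). CDC27 (0.60) and CDC23 (0.55) of this complex were among the highest of the wider list. GMNN, the gene of geminin, an inhibitor of replication licensing, was the exception at 2.26 with doxycycline and 2.73 with both, and PDS5A stood at 0.43.

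DNA replication genes, the most similar other group, were at least 2-fold lower in 20 of 39 cases under both treatments (median -1.02) and in 16 in both minus doxycycline (median -0.94). The list named DREAM complex was wider than that complex and its E2F partners, as it also held E2F1, E2F2, RB1 and the NF-Y subunits. Genes of this mixed list were not shifted alike (1 of 21 at least 2-fold lower, median -0.13). E2F2 stood at -1.95 and E2F1 at -0.59. Inhibitors of cyclin-dependent kinases and p53 targets included 6 of 22 at least 2-fold higher and 0 lower under both treatments (median 0.36). CDKN1A, the gene of p21, stood at 0.81 with TNF, 0.71 with doxycycline and 2.05 with both, and CDKN2B at 0.55, 0.48 and 2.11. GADD45A (2.79) and BTG2 (2.40) were highest with both, while CDKN1B, the gene of p27, stood at -0.49 and CDKN2C at -0.90. Of 11 reference genes often used for scaling, 1 was at least 2-fold lower and 1 higher under both (median -0.35; ACTB -0.83, TFRC -1.12, B2M 1.68).

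**Figure D5:**
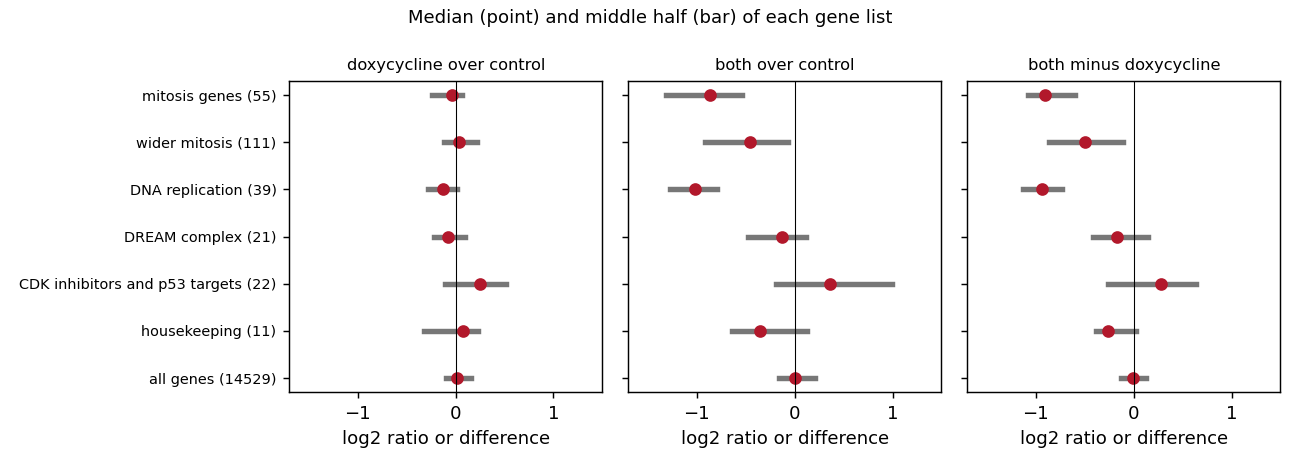
Median (point) and interquartile range (bar) of the log2 ratios or differences (x axis) of each gene list (rows, number of measured genes in brackets) for doxycycline over control, both over control and both minus doxycycline. Mitosis and DNA replication genes lie below 0 for both treatments and for both minus doxycycline, with medians between -0.87 and -1.02. With doxycycline alone the medians of all lists lie within 0.25 of 0, while the bar of CDK inhibitors and p53 targets reaches 0.51.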

How the data were processed

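Total RNA of 3 treated cultures and their untreated controls was measured on two-colour oligonucleotide arrays with 24460 probes and 2680 blank spots, 1 array per condition. Per the file headers, the deposited intensity values are spot medians at 635 nm (Cy5, control) and 532 nm (Cy3, treated) joined from scans at 3 gains, not normalised. The authors also deposited a table of log2 ratios; all 18330, 19535 and 19605 of its values (TNF, doxycycline, both) equalled log2 of Cy3 over Cy5 after subtraction of a blank mean trimmed by 5% at each end and of 1 constant per array, within 0.001, which fixes the direction as treated over control and the centring at a column median of 0.

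Here the same blank mean was subtracted, normexp (offset 50) and loess within arrays were applied (limma 3.58.1, R 4.3.3; control spots at zero weight), and probes of 1 gene were averaged. A channel was above background beyond the 95th percentile of the blanks; 3 probes marked bad were dropped. Control levels were compared between arrays after Aquantile scaling. Of 20236 probes with a symbol, 17238 kept it, 2900 were updated through RefSeq's gene table and 98 stayed unmatched. Python 3.11.15, pandas 2.3.3 and matplotlib 3.10.9 were used for the rest. A single array per condition allows no test and limits the precision. The genes, lists and comparisons were chosen with earlier results of these data known. All 55 genes could be named. The choice of those given by signal started from a rule (13 fixed genes and, per role, the 2 lowest and 2 highest on the combined array). Some genes under the rule, such as CCNB1, SPC24, KIF20B and MYBL2, are given by ratio only, and others were added after their values were seen. From other lists the 4 lowest and 4 highest genes could be named, and NCAPD2, UBE2S and FBXO5 were added after their values were seen. Only the normalisation step was tried on a simulated array, built from the control channel of the doxycycline array with known changes in bright probes. It did not cover changes in dim spots or the treated channel of the TNF array.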

Additional observations from a re-analysis of the deposited data

Results flagged for a closer look

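IQGAP3, a scaffold protein of the IQGAP family, was the 1 gene of the 55 that differed by at least 2-fold in opposite directions for TNF without and with doxycycline. It stood at 1.59 with TNF over control and at -1.48 in both minus doxycycline. Its treated signals were 961 with TNF, 517 with doxycycline and 124 with both, against control signals of 218, 199 and 186. The difference between these readings was not tested, since each rests on 1 array, and it involves the TNF array, on which probes of the same gene differed most. The part of that array in the result was not tested.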

How the results depend on the processing

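No paired analysis was possible because the 3 groups have 1 sample each. Under the alternatives tried (other backgrounds, offset, centring, scaling, filters and probe choice) and a filter without the TNF array, added after seeing the data, the mitosis genes had a negative median in both over control and both minus doxycycline under each, and in both minus TNF under each but that filter, which gives it no value. Of the genes at least 2-fold lower, 7 of 23 in both over control and 10 of 22 in both minus doxycycline were so under all 11 settings. Aquantile scaling leaves ratios within an array as they are by its construction. All 64 probes of the 55 genes passed the filter on dim probes. Dropping that filter, or leaving the TNF array out of it, therefore returned the same values for these genes. Such settings could not change a sign or a call, although they count among the 11. With median centring the medians were -0.0924 (TNF array), 0.37 (doxycycline array), -0.52 (combined array) and -0.33 (both minus TNF). Here 10 of the 55 genes were at least 2-fold lower on the combined array, against 0.929% of all genes. The authors' deposited table gave medians of 0.0523 (TNF array, 53 genes), -1.10 (combined array), -1.18 (both minus doxycycline) and -1.17 (both minus TNF). In it 33 genes were at least 2-fold lower on the combined array, 34 in both minus doxycycline and 27 of 53 in both minus TNF. Of all genes 5.46%, 3.42% and 15.1% were as low there, against 2.13%, 0.909% and 3.29% as reported, so the whole array spread more widely in that table. With the scanner's local background the medians were -0.70 (combined array), -0.58 (both minus doxycycline) and -0.39 (both minus TNF). At least 2-fold lower were 1 gene on the doxycycline array and 12 in both minus doxycycline, against 0.296% and 1.34% of all genes. With it 48 of 55 genes instead of 54 lay below 0 on the combined array and 50 instead of 53 in both minus doxycycline. Of values at least 2-fold from the control, BUB1B turned to 0.33 and CDCA8 to 0.0333 on the combined array, CDCA8 to 0.37 and KIF23 to 0.70 in both minus doxycycline and CDCA8 to 0.19 in both minus TNF. With the brightest probe ECT2 turned to 0.27 on the TNF array. The cause of these shifts was not tested. Of 2616 single-gene values under these alternatives, 92 had the opposite sign to the reported one, 27 of them on the doxycycline array with median centring. Of the 92, 6 had been at least 2-fold from 0. The 2616 include the values of the settings that could not change a sign, so the share of 92 among them understates how often signs turned elsewhere. Dim spots, such as MKI67 and ANLN, limit what ratios can show.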
